A study of Torulaspora microellipsoides with 8 samples.

Results

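The genes of sterol and fatty acid synthesis were compared between opaque and white cells of the budding yeast T. microellipsoides. Members were transcribed regions whose closest S. cerevisiae protein had the name of an ergosterol gene (ERG followed by a digit) or was 1 of a fixed set of sterol and fatty acid genes. The rule itself used names alone and no measured value, but it was set with earlier results of these data known. It found 38 of 4464 regions, which carry 31 of the 3317 gene names in the annotation. Messenger RNA had been sequenced from 3 opaque and 3 white cultures of a single strain, grown in yeast extract glucose medium at 23 °C from an optical density (OD600) of 0.05 and harvested in log phase at 1.0. Opaque cells come from darker sectors of a white colony, are larger and have a higher DNA content, while white cells are the small haploid form of the same strain. No drug, deletion or transgene separated the groups. It is not given in the sources used here whether the cultures of a cell type were started from 1 colony or several.

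Ergosterol is the main sterol of fungal membranes, where it fills the place that cholesterol has in animals. Its carbon comes from acetyl-CoA through mevalonate and isoprenoid units to squalene, which is closed into lanosterol and then trimmed and desaturated to ergosterol. The same acetyl-CoA is carboxylated and built into saturated fatty acids, some of which are desaturated or lengthened for membrane lipids. Several of these steps consume oxygen and use heme or iron enzymes, and in S. cerevisiae the genes are known to respond to sterol level, oxygen and membrane state.

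The 6 libraries held 24948791 to 50126043 counts, and each member region had reads over its whole length in every library. Levels are given as counts per 1000000 counts of a library (CPM) after TMM scaling, a correction for library composition. Differences are log2 fold changes of opaque over white, so that positive values mean a higher level in opaque cells. Tests were made with edgeR over 4404 regions, and the threshold was a p of 0.05 after Benjamini-Hochberg adjustment over all of them. The labels were set beside genes that the text of the study gives as different between the cell types by RT-qPCR. These genes were picked for that with these libraries in view and so give no independent check. The permeases GAP1 and MEP2 (log2 fold changes 4.18 and 4.14) and the ribosomal gene RPL30 (2.29-fold) were higher and the catalase CTT1 (-3.51) was lower in every opaque library than in every white one, while XRN1 overlapped (-0.05). The text of the study gives XRN1 as higher in white cells, but its figure on the same experiment shows XBP1. XBP1 was not among the genes read for this. CPM are shares of a library, and in such bulk samples a smaller share of cells with a transcript and less of it per cell cannot be told apart.

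Of 21 sterol enzymes, 15 were higher in opaque cells, 3 lower and 3 not past the test, while 41.0% of all tested names were higher and 37.4% lower. The steps up to lanosterol were all higher, although ERG8 kept its call in only 3 of 16 alternative analyses. ERG12 and MVD1 missed the threshold with total-count scaling. The steps just after the lanosterol demethylase (ERG24, ERG25 and ERG26) were lower, and the later steps were higher or did not pass the test. Of these later steps, ERG3 lost its call as higher in 9 of 16 alternatives. In fatty acid metabolism the initial carboxylase was lower, whereas both elongases with a region, ELO2 and ELO3, were higher. With 1 region per name, 18 of 31 names (58.1%) rose in opaque cells, 6 (19.4%) fell and 7 did not pass, and the background was all 3301 tested names. The share of members called in either direction, 77.4%, was thus close to the 78.4% of all names. Over the 38 regions, of which 37 were tested, 19 were higher and 7 lower, where 36.6% of all tested regions were higher, 37.6% lower and 74.2% either. The split depended on scaling, since with total counts and no composition factors 13 names were higher and 9 lower, and the median of all regions shifted by -0.16 on the log2 scale.

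Most of these changes were small. The median size of the log2 fold change was 0.44 over the 31 names and 0.53 over all tested names. A change of at least 2-fold was found for 2 members, ERG2 and ERG13, both higher, while 16.3% of all names were higher and 10.9% lower by that much. The libraries of the cell types did not overlap for 17 names with opaque above white and 6 with opaque below white, and over all names such separation was found for 42.0% and 39.4%. In signed terms, the median log2 fold change of the members was 0.30, and that of all names was 0.02.

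**Figure D1:**
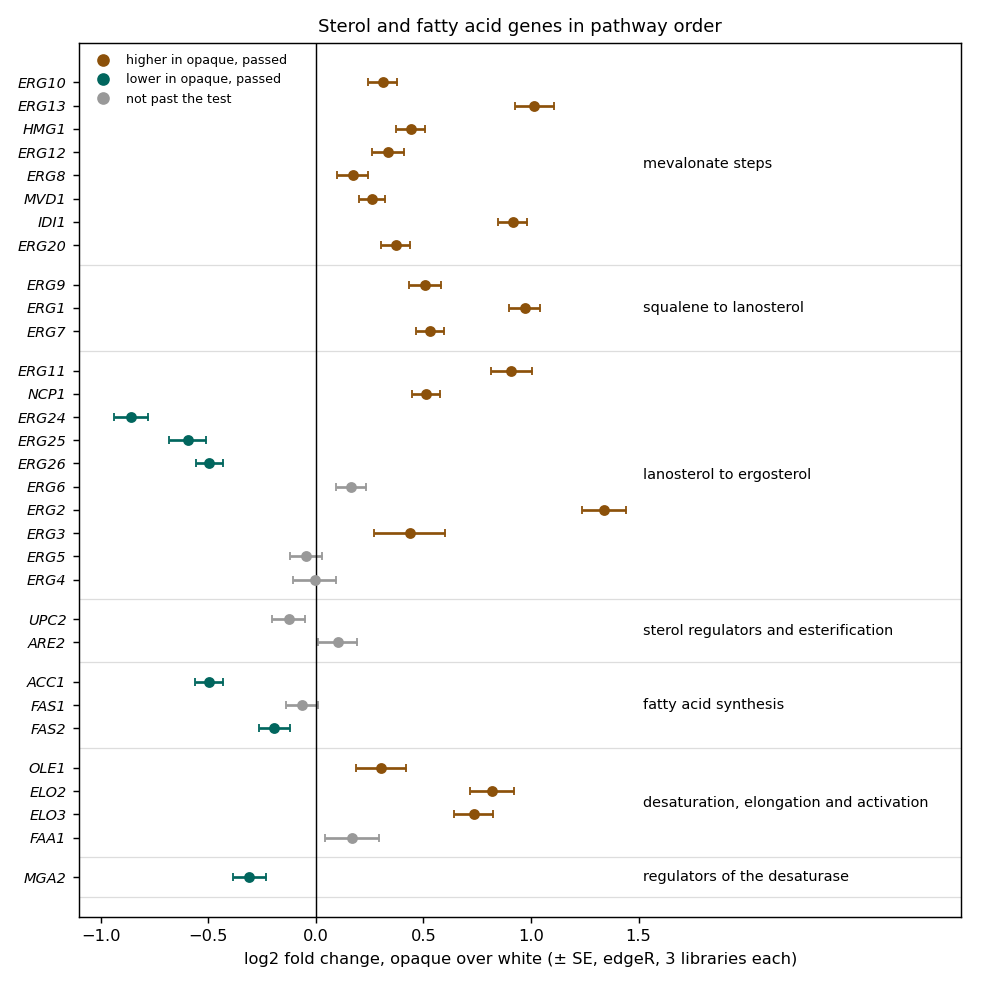
Log2 fold change of opaque over white (horizontal axis) for the 31 member names in pathway order from top to bottom, 1 region per name, with bars of 1 SE from edgeR on 3 libraries of each cell type. Brown points rose and green points fell in opaque cells, and grey points did not pass the test. ERG24, ERG25 and ERG26 lie left of 0 after higher steps. Of the sterol steps after them, ERG2 and ERG3 were higher, and ERG6, ERG5 and ERG4 did not pass.

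The mevalonate steps, which turn acetyl-CoA into farnesyl diphosphate, were higher in opaque cells for 8 of 8 names, with a median log2 fold change of 0.35. Over all tested names, 41.0% were higher. The largest change was that of ERG13, the HMG-CoA synthase, on scaffold 3 from base 88514 to 89896 of the minus strand. It had 766, 824 and 871 CPM in opaque cultures 1 to 3, against 401, 359 and 457 CPM in white cultures 1 to 3. By edgeR it was 2.02-fold higher in opaque cells (log2 fold change 1.02, SE 0.092, adjusted p = 1.6e-06), and the lowest opaque library lay well above the highest white one.

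IDI1, the isomerase that interconverts the isoprenoid units, changed almost as much with less spread. Its level was 276, 265 and 302 CPM in opaque cultures, against 154, 148 and 146 CPM in white cultures, which is 0.92 on the log2 scale (SE 0.068, adjusted p = 2.7e-07, edgeR). The white libraries differed little from each other, and all lay below the opaque ones. The IDI1 region is on scaffold 2 from base 487167 to 487994.

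HMG1, the HMG-CoA reductase that is known as the rate-controlling enzyme of the pathway in S. cerevisiae, changed less than the synthase before it. It had 446, 506 and 478 CPM in opaque cultures, against 350, 341 and 362 CPM in white cultures, a difference of 0.44 on the log2 scale (SE 0.068, adjusted p = 0.00012, edgeR). ERG10, the acetoacetyl-CoA thiolase that starts the pathway, had a log2 fold change of 0.31, and ERG20, the farnesyl diphosphate synthase that ends it, one of 0.37. Between them lie the kinases and the decarboxylase. The log2 fold change was 0.34 for ERG12 (mevalonate kinase), 0.26 for MVD1 (mevalonate diphosphate decarboxylase) and 0.17 for ERG8 (phosphomevalonate kinase). ERG8 was at the edge of the test, at 147, 147 and 161 CPM in opaque cultures and 142, 126 and 136 CPM in white cultures (adjusted p = 0.0457, edgeR), and it kept its call in 3 of 16 alternative analyses. With total-count scaling, ERG12 and MVD1 also missed the threshold, at log2 fold changes of 0.18 and 0.11. A second ERG8 region, on scaffold 1, was 80 bases long with at most 1.28 CPM in any library and did not pass (-0.14, SE 0.460).

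From squalene to lanosterol, 3 of 3 names were higher in opaque cells, where 41.0% of all tested names were higher. ERG1, squalene epoxidase, adds oxygen to squalene and had the highest level per length of all members in opaque cells. Its region, on scaffold 1 from base 1205928 to 1207394 of the minus strand, had 1870, 1988 and 1995 CPM in opaque cultures, against 1085, 934 and 968 CPM in white cultures. The groups were far apart, by 0.97 on the log2 scale (SE 0.073, adjusted p = 3.3e-07, edgeR). Around it, ERG9 (squalene synthase) and ERG7 (lanosterol synthase) were higher by log2 fold changes of 0.51 and 0.53. The main ERG7 region was among the most even in opaque cells, at 215, 214 and 213 CPM, while white cultures had 152, 138 and 153 CPM. Short second regions matched the same names. One matching ERG7, 101 bases long and 44.1% identical to the S. cerevisiae protein, passed at 1.75 but held only 1.70 to 2.56 CPM in opaque and 0.491 to 0.772 CPM in white cultures. The other, of 77 bases and matching ERG9, did not pass (0.11, SE 0.234). Summed over the 5 regions of these steps, the level was 1.82 times as high in opaque as in white cells, the highest ratio of the groups of steps.

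In the conversion of lanosterol to ergosterol, 4 of 10 names rose in opaque cells, 3 fell and 3 did not pass, shares near the 41.0% and 37.4% of all tested names. ERG11, the lanosterol demethylase and the target of azole antifungals, is a heme enzyme. It had 1124, 1207 and 1293 CPM in opaque cultures, against 699, 550 and 680 CPM in white cultures, 0.91 higher on the log2 scale (SE 0.096, adjusted p = 5.6e-06, edgeR). NCP1, the reductase that passes electrons to it, had a log2 fold change of 0.51, at 562 ± 29.7 CPM in opaque and 394 ± 10.9 CPM in white cells (SD, n = 3 each).

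ERG24, the reductase that acts directly on the product of ERG11, went the other way. Its region on scaffold 9, from base 170175 to 171485 of the minus strand, had 86.2, 95.1 and 107 CPM in opaque cultures, against 175, 173 and 175 CPM in white cultures. The white libraries were nearly equal and all above the opaque ones, and the difference was -0.86 on the log2 scale (SE 0.080, adjusted p = 1.9e-06, edgeR), which is a 1.81-fold higher level in white cells.

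The next enzymes remove the methyl groups at the fourth carbon of the ring. ERG25, the methyl sterol oxidase, had 79.2, 84.4 and 94.6 CPM in opaque cultures, against 124, 122 and 143 CPM in white cultures (log2 fold change -0.60, SE 0.085, adjusted p = 7e-05, edgeR). ERG26, the decarboxylating dehydrogenase that follows, had 262, 262 and 275 CPM in opaque cultures, against 390, 381 and 354 CPM in white cultures (-0.49, SE 0.064, adjusted p = 2.9e-05, edgeR). For both genes every opaque library lay below every white one, and both calls were kept in all 16 alternative analyses, as was that of ERG24. No region was named ERG27 or ERG28, which work with them in S. cerevisiae. ERG25 and ERG26 lie on scaffold 4 and ERG24 on scaffold 9, so the lower genes do not form a single run of neighbours.

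Later in the pathway, ERG2, the sterol isomerase, had the largest change of all 31 names. It had 313, 310 and 357 CPM in opaque cultures, against 148, 112 and 127 CPM in white cultures, a difference of 1.34 on the log2 scale (SE 0.103, adjusted p = 6.6e-07, edgeR). Opaque cells thus held 2.53 times the white level, and no library came near the other group. The gene is on scaffold 2 from base 197341 to 198006 of the minus strand.

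ERG3, the sterol desaturase that acts after ERG2, passed narrowly. Its level was 569, 664 and 805 CPM in opaque cultures, against 554, 396 and 557 CPM in white cultures (0.44, SE 0.164, adjusted p = 0.0409, edgeR), so opaque culture 1 was barely above white cultures 1 and 3. The call was lost in 9 of 16 alternatives, including those without opaque culture 2 (0.44, adjusted p = 0.0792, edgeR), opaque culture 3 (0.28, adjusted p = 0.154, edgeR), white culture 1 (0.49, adjusted p = 0.0514, edgeR) or white culture 2 (0.29, adjusted p = 0.0854, edgeR).

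ERG6, the sterol methyltransferase that gives fungal sterols their side chain methyl group, was abundant in both cell types. It had 931, 994 and 1001 CPM in opaque cultures and 933, 853 and 827 CPM in white cultures, and just missed the threshold (0.16, SE 0.069, adjusted p = 0.0515, edgeR). It passed with RLE scaling in edgeR (adjusted p = 0.0389), with DESeq2 (0.18, adjusted p = 0.0277) and, by edgeR, without white culture 1 (0.20, adjusted p = 0.0374). The last enzymes, ERG5 (a second sterol desaturase, also a heme enzyme) and ERG4 (the final reductase), had log2 fold changes of -0.05 (SE 0.076) and -0.01 (SE 0.101), and their libraries overlapped. With total-count scaling ERG5 passed as lower (-0.20).

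**Figure D2:**
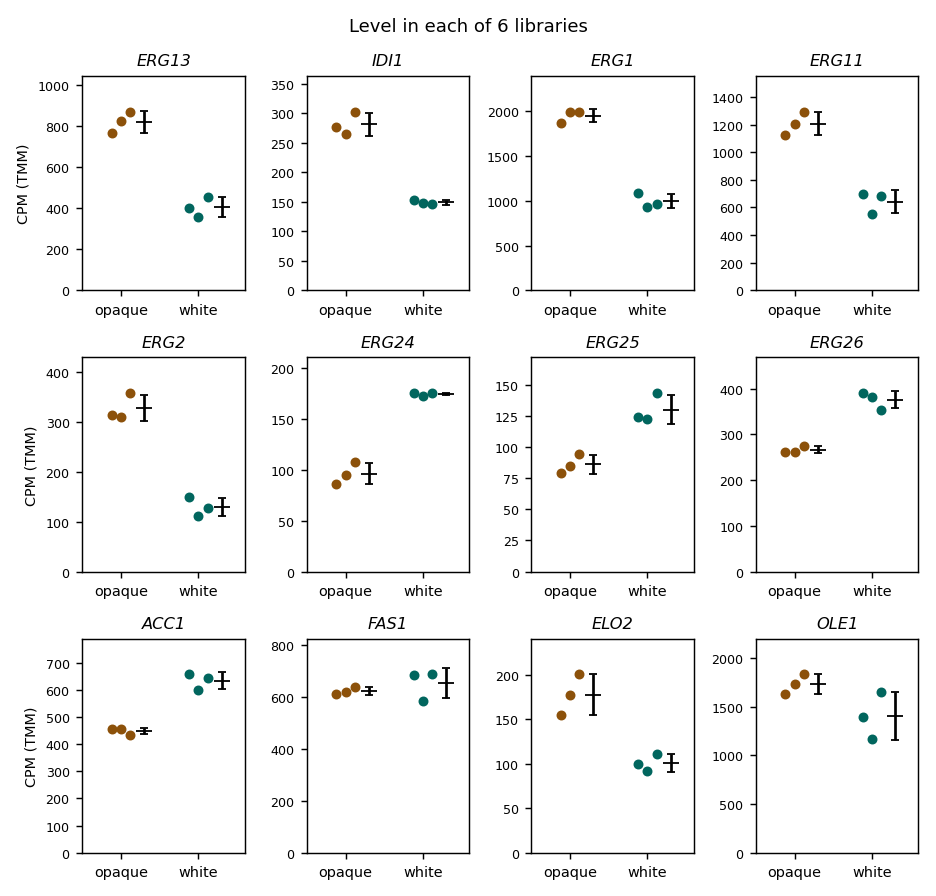
Level in each library for 12 member genes, in CPM after TMM scaling on axes that start at 0, with opaque cultures 1 to 3 (brown) left of white cultures 1 to 3 (green) and the mean ± SD beside each group. The opaque points of ERG13, IDI1, ERG1, ERG11, ERG2 and ELO2 all lie above the white points, those of ERG24, ERG25, ERG26 and ACC1 below, and those of FAS1 and OLE1 overlap with them.

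The contrast within the late pathway was also visible inside each library, where a ratio of genes does not depend on scaling. The pairs of genes whose ratios are given were picked after their values had been seen and were not tested. Counted per kb of region, ERG11 was 10.8, 10.5 and 9.94 times ERG24 in opaque cultures, against 3.30, 2.63 and 3.20 times in white cultures. ERG1 was 19.4, 18.7 and 16.6 times ERG24 in opaque cultures, against 5.55, 4.84 and 4.94 times in white cultures. The order of ERG2 and ERG26 differed between cell types, since their ratio was 1.88, 1.86 and 2.04 in opaque cultures, against 0.598, 0.462 and 0.566 in white cultures.

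Among the regulatory and storage genes, neither of 2 names passed, where 78.4% of all tested names passed in either direction. UPC2, the transcription factor that activates sterol genes in S. cerevisiae when sterol is low, had 83.8, 92.3 and 81.4 CPM in opaque cultures and 102, 88.7 and 90.3 CPM in white cultures (-0.13, SE 0.076, adjusted p = 0.152, edgeR). A second region named UPC2, 800 bases long and 41.7% identical, starts 163 bases after the first ends on the same strand of scaffold 9. It was lower in opaque cells, at 45.8, 48.3 and 43.3 CPM, against 56.5, 53.8 and 52.8 CPM in white cells (-0.25, SE 0.069, adjusted p = 0.00744, edgeR). With the counts of both regions summed, UPC2 passed as lower, at -0.21 (adjusted p = 0.0176, edgeR). Whether the regions belong to 1 transcript was not tested. UPC2 had the lowest level per length of the 31 names in both cell types. ARE2, which esterifies sterols for storage, had a log2 fold change of 0.10 (SE 0.090) with overlapping libraries. No region was named ARE1, ECM22 or HMG2.

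The cytosolic synthesis of saturated fatty acids did not move with the early sterol steps: of 3 names, 2 were lower in opaque cells and 1 did not pass. Over all tested names, 37.4% were lower. ACC1, the acetyl-CoA carboxylase whose product malonyl-CoA feeds the synthase, had 454, 457 and 435 CPM in opaque cultures, against 657, 599 and 644 CPM in white cultures. The difference was -0.50 on the log2 scale (SE 0.065, adjusted p = 3.4e-05, edgeR), and every opaque library was below every white one. The gene spans scaffold 2 from base 168636 to 175328.

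The subunits of the fatty acid synthase changed less. FAS2, the alpha subunit, had 734, 732 and 726 CPM in opaque cultures, against 854, 762 and 888 CPM in white cultures (-0.19, SE 0.071, adjusted p = 0.0287, edgeR). FAS1, the beta subunit, had 613, 620 and 641 CPM in opaque cultures and 685, 587 and 688 CPM in white cultures and did not pass (-0.07, SE 0.075, adjusted p = 0.445, edgeR). White culture 2 was the lowest white library for both. The FAS2 call was lost in 6 of 16 alternatives, 5 of which left out 1 culture: opaque culture 1 (-0.21), 2 (-0.21) or 3 (-0.21), or white culture 1 (-0.20) or 3 (-0.16). The sixth, which used the culture number as a block, gave an adjusted p of 0.0605 (edgeR). Total-count scaling also called FAS1 lower (-0.22). Because the subunits work in equal number in the synthase of S. cerevisiae, their ratio is of interest: per kb, FAS1 was 0.775, 0.787 and 0.819 times FAS2 in opaque cultures, against 0.744, 0.715 and 0.719 times in white cultures.

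A further FAS2-like region on scaffold 1, 3800 bases long and 45.8% identical to FAS2 where the main region is 82.4% identical, was transcribed at 73.8, 71.2 and 66.6 CPM in opaque cultures and 63.8, 70.0 and 60.8 CPM in white cultures. It did not pass (0.12, SE 0.072), although it did without white culture 2 (0.18, adjusted p = 0.0398, edgeR). A fragment of 176 bases with the same name starts 1168 bases after it and held at most 2.31 CPM. It did not pass (0.68, SE 0.354), except without opaque culture 3, where its log2 fold change was 0.94. A FAS1 fragment of 68 bases was too low to be tested.

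The genes that modify fatty acids were higher in opaque cells for 3 of 4 names, where 41.0% of all tested names were higher. The third of these, OLE1, passed only narrowly. ELO3 and ELO2, the elongases that make the very long chains of sphingolipids, changed most. ELO3 had 414, 458 and 505 CPM in opaque cultures, against 272, 252 and 303 CPM in white cultures (0.73, SE 0.090, adjusted p = 2.1e-05, edgeR). ELO2 had 155, 178 and 200 CPM in opaque cultures, against 99.5, 91.4 and 111 CPM in white cultures (0.82, SE 0.103, adjusted p = 3.4e-05, edgeR). Both had opaque libraries above every white one and kept their calls in all 16 alternatives. In ratio to FAS1 per kb, ELO2 was at 1.49, 1.69 and 1.84 in opaque cultures, against 0.855, 0.917 and 0.949 in white cultures.

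OLE1, the desaturase that makes the monounsaturated fatty acids of yeast membranes, was at 1627, 1734 and 1832 CPM in opaque cultures and 1396, 1164 and 1654 CPM in white cultures. The groups overlapped, since white culture 3 was above opaque culture 1, and the call was narrow (0.30, SE 0.115, adjusted p = 0.0378, edgeR). It was lost in 12 of 16 alternatives, among them those without any of opaque cultures 1 (0.33), 2 (0.28) and 3 (0.24) or white cultures 1 (0.28) and 2 (0.18), and with upper-quartile (0.18) or total-count scaling (0.14). FAA1, which activates fatty acids to acyl-CoA, had 447, 491 and 562 CPM in opaque cultures and 432, 377 and 527 CPM in white cultures, and did not pass (0.17, SE 0.127) unless white culture 3 was left out (0.30, adjusted p = 0.0326, edgeR). MGA2, a membrane-bound factor that activates OLE1 in S. cerevisiae, was lower at 225, 228 and 194 CPM in opaque cultures, against 256, 282 and 264 CPM in white cultures (-0.31, SE 0.076, adjusted p = 0.00344, edgeR). The T. microellipsoides region was 41.6% identical to MGA2 of S. cerevisiae, the lowest identity among the 31 names. Among the fatty acid genes sought, no region was named ELO1, FAA4, BPL1 or SPT23.

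**Figure D3:**
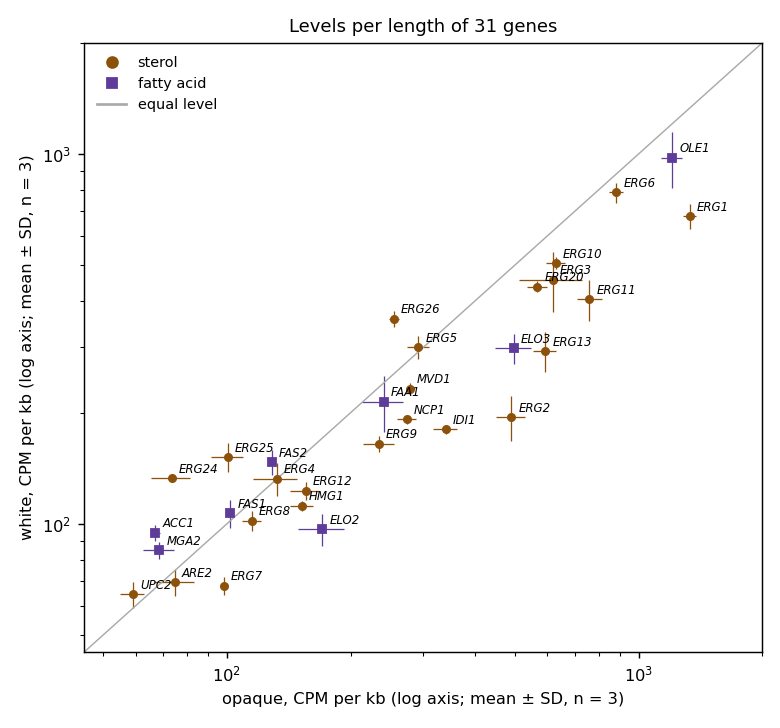
Mean level per length of 31 member names in opaque (horizontal) and white cells (vertical), in CPM per kb on log axes with bars of 1 SD over 3 cultures. Sterol genes are brown circles and fatty acid genes purple squares, and points below the grey line are higher in opaque cells. OLE1, ERG6 and ERG1 have the highest levels in both, and ERG24, ERG25, ERG26 and ACC1 lie above the line.

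The levels per length covered a wide range within the pathway. In opaque cells ERG1 came first at 1331 ± 48.0 CPM per kb, followed by OLE1 at 1206 ± 71.5, ERG6 at 882 ± 34.8 and ERG11 at 760 ± 53.0 CPM per kb (SD, n = 3). In white cells the order was OLE1 at 978 ± 171, ERG6 at 787 ± 49.9, ERG1 at 679 ± 53.9 and ERG10 at 507 ± 17.9 CPM per kb (SD, n = 3). The ranges of 1 SD around OLE1 and ERG6 overlapped in white cells, although OLE1 was above ERG6 per length in each white library. The ranges of the other neighbours named did not overlap. These orders were not tested. At the low end, UPC2 had 59.0 ± 3.93 CPM per kb in opaque and 64.4 ± 5.04 CPM per kb in white cells (SD, n = 3 each). Among the sterol enzymes, ERG24 was the lowest in opaque cells, at 73.4 ± 8.04 CPM per kb, and ERG7 in white cells, at 68.0 ± 3.84 CPM per kb (SD, n = 3 each). By rank among the 31 names, ERG24 was 28 in opaque and 20 in white cells, ERG26 was 15 in opaque and 8 in white cells, and ELO2 was 18 in opaque and 26 in white cells.

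Summed over all 38 regions, the members took 16161 ± 759 CPM in opaque and 12739 ± 859 CPM in white cells (SD, n = 3 each), or 1.62% and 1.27% of the scaled total. The sterol enzymes accounted for most of this, with 10928 ± 539 CPM in opaque and 7778 ± 447 CPM in white cells, a ratio of 1.40. The fatty acid enzymes had 4744 ± 225 CPM in opaque and 4414 ± 488 CPM in white cells, a difference within the spread of the white cultures, and their ratio of 1.07 fell below 1 with upper-quartile (0.991) or total-count scaling (0.962). Within each library, ERG13 per kb was 8.17, 8.74 and 9.70 times ACC1 in opaque cultures, against 2.95, 2.90 and 3.44 times in white cultures, which sets an early enzyme of each branch against the other.

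**Figure D4:**
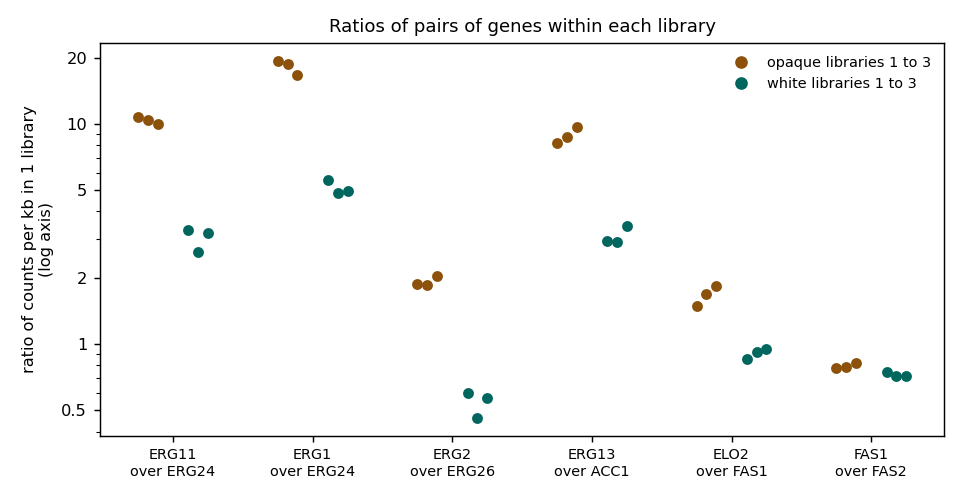
Ratio of counts per kb of 6 pairs of genes within each library (log axis), opaque cultures 1 to 3 in brown left of white cultures 1 to 3 in green. For ERG11 over ERG24 the opaque points lie at 9.94 to 10.8 and the white points at 2.63 to 3.30, and for FAS1 over FAS2 at 0.775 to 0.819 and 0.715 to 0.744.

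The members varied together among cultures of 1 cell type. Opaque culture 3 was the highest opaque library for 22 of 31 names (71.0%), where it was so for 40.9% of all tested names, and white culture 2 was the lowest white library for 24 of 31 (77.4%), against 34.1% of all names. ERG3, OLE1 and FAA1, the members with the widest spread in white cells, followed this pattern. The part of this shared variation in the differences between cell types was not tested, but the count of changed names was 20 to 23 when any 1 culture was left out. The median coefficient of variation of the members was 6.42% in opaque and 7.0% in white cells, against 5.44% and 6.05% over all names.

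Electron carriers and heme belong to the same chemistry, since ERG11 and ERG5 bind heme and several desaturases and hydroxylases take electrons from cytochrome b5. Of 5 names of heme synthesis and cytochrome b5, 3 were higher and 2 lower in opaque cells, where 41.0% of all names were higher and 37.4% lower. HEM13, the oxygen-requiring coproporphyrinogen oxidase, had 1739, 1732 and 1835 CPM in opaque cultures, against 800, 562 and 687 CPM in white cultures (1.37, SE 0.114, adjusted p = 1.9e-06, edgeR). CYB5, cytochrome b5 itself, had 295, 289 and 323 CPM in opaque cultures, against 123, 86.5 and 120 CPM in white cultures (1.46, SE 0.126, adjusted p = 4e-06, edgeR). Both log2 fold changes were near that of ERG2 (1.34). HEM1, which starts heme synthesis, was higher by 0.72, whereas HEM2 and HEM3 had log2 fold changes of -0.16 and -0.25. A region named YMR134W, a gene also known as ERG29 and not counted as a member because of its name in the annotation, had 59.5 ± 12.4 CPM in opaque and 28.2 ± 5.96 CPM in white cells (1.07, SE 0.192, adjusted p = 0.00115, edgeR; SD, n = 3 each).

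Other genes of sterol use fell in opaque cells more often than they rose. Most names listed move, store or break down sterols, but HRD1, HRD3, NSG2 and DAP1, all lower, act on pathway enzymes instead. Of 17 names in this list, 12 (70.6%) were lower, where 37.4% of all names were, 2 were higher and 3 did not pass, with a median log2 fold change of -0.55. OSH2, an oxysterol-binding protein, had 147, 127 and 129 CPM in opaque cultures, against 424, 470 and 402 CPM in white cultures (-1.68, SE 0.083, adjusted p = 9e-09, edgeR). YSP2, which transfers sterol between membranes, had 65.5, 63.6 and 64.5 CPM in opaque cultures, against 151, 146 and 138 CPM in white cultures (-1.16, SE 0.062, adjusted p = 1.6e-08, edgeR). NCR1, the yeast relative of the Niemann-Pick protein, OSH3 and HRD3, a part of the ligase that degrades HMG-CoA reductase in S. cerevisiae, were lower as well, with log2 fold changes of -0.87, -0.80 and -0.70. Both names that rose, LAM1 and LAM4, rested on regions of only 80 and 62 bases. PDR11 (sterol uptake), KES1 (sterol exchange) and ATF2 (sterol acetylation) did not pass.

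The supply of acetyl-CoA and the accessory enzymes of fatty acid metabolism had their own pattern. Of 6 names of acetyl-CoA supply, 4 (66.7%) were lower in opaque cells, where 37.4% of all names were, 1 was higher and 1 did not pass. The aldehyde dehydrogenases ALD4 and ALD6, which make acetate, changed most. ALD4 had 6.49, 6.13 and 7.12 CPM in opaque cultures, against 1635, 1497 and 1643 CPM in white cultures (-7.92, SE 0.098, adjusted p = 1.8e-12, edgeR). ALD6 had 18.8, 17.3 and 18.7 CPM in opaque cultures, against 682, 893 and 734 CPM in white cultures (-5.39, SE 0.116, adjusted p = 2.9e-11, edgeR). Both were thus far lower in every opaque library. ALD5, another aldehyde dehydrogenase, did not pass (-0.01, SE 0.124, adjusted p = 0.965, edgeR). It had 1078, 1311 and 1089 CPM in opaque cultures and 977, 1153 and 1362 CPM in white cultures. In every opaque library ALD5 was thus far above ALD4 and ALD6. PDC1, pyruvate decarboxylase, was lower at -0.52. ACS1, an acetyl-CoA synthetase, had 12.7, 9.90 and 11.1 CPM in opaque cultures, against 123, 130 and 119 CPM in white cultures (-3.45, SE 0.093, adjusted p = 1.2e-10, edgeR). ACS2, the synthetase used on glucose in S. cerevisiae, was matched only by a region of 92 bases, so its level is uncertain. Mitochondrial fatty acid synthesis, a separate route that leads to lipoic acid, was lower for 3 of 4 names (against 37.4% lower over all names) and higher for CEM1 (0.35). OAR1 and ACP1 had log2 fold changes of -0.65 and -0.34, and ETR1 changed most, at 56.3 ± 2.83 CPM in opaque and 201 ± 13.4 CPM in white cells (-1.83, SE 0.073, adjusted p = 1.5e-09, edgeR; SD, n = 3 each). The partners of the elongases did not move with them. IFA38 and PHS1, the reductase and dehydratase of the elongation cycle, had log2 fold changes of -0.65 and -0.35, against 0.82 for ELO2 and 0.73 for ELO3. ACB1, the acyl-CoA binding protein, was lower at -0.66, and FAA2 (acyl-CoA synthetase) was higher at 0.49. In all, 4 of 6 names of that list (66.7%, against 37.4% of all names) were lower, 1 higher and 1 not past the test, but the fourth lower name, PBN1, belongs to anchor synthesis rather than elongation and was listed in error.

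**Figure D5:**
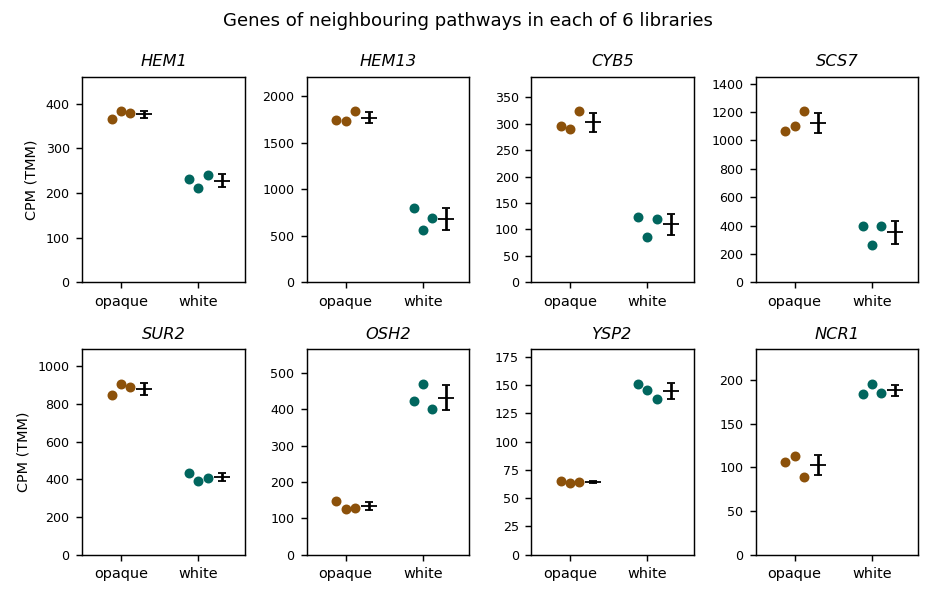
Level in each library for 8 genes of neighbouring pathways, in CPM after TMM scaling on axes that start at 0, with opaque cultures 1 to 3 (brown) left of white cultures 1 to 3 (green) and the mean ± SD beside each group. HEM1, HEM13, CYB5, SCS7 and SUR2 lie higher in opaque cells without overlap, and OSH2, YSP2 and NCR1 lower.

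Oxygen and membrane state are known to control many of these genes in S. cerevisiae. For this reason 2 more lists were read, of hypoxic genes with their regulators and of the factors that process SPT23 and MGA2. Both lists are short, and 41.0% of all names were higher and 37.4% lower. The first list had 5 names with a region. Of its regulators, ROX1 (a repressor of hypoxic genes, 0.90) and SUT1 (a regulator of sterol uptake, 0.72) were higher in opaque cells. HAP1, the heme-responsive activator, did not pass (0.18). The other names differed in direction. ANB1 (a translation factor with a near-identical copy in S. cerevisiae) was higher at 0.66, and TIR3 (a cell wall protein) was lower at -2.17. Whether the ANB1 region is the hypoxic copy was not tested. Of 5 names around MGA2, the ubiquitin ligase RSP5 had 341, 339 and 339 CPM in opaque cultures, against 600, 627 and 587 CPM in white cultures (-0.83, SE 0.061, adjusted p = 2.6e-07, edgeR). UBX2 was lower as well (-0.50), the RSP5 adaptors BUL1 and BUL2 were higher (1.15 and 0.72) and CDC48 did not pass (0.10). Among the member enzymes that use oxygen, ERG1, ERG11, ERG3 and OLE1 passed as higher, ERG25 as lower, and ERG5 did not pass. A part of oxygen in these differences was not tested.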

How the data were processed

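RNA of 3 opaque and 3 white cultures was analysed from whole-number counts per transcribed region, which the authors deposited without normalization. According to the methods of the study, a stranded mRNA kit and paired reads were used, reads were aligned with STAR to the CLIB830T genome, cufflinks was used to assemble transcripts, and names were taken from the closest S. cerevisiae protein found by BLAST. Use of strand and counting of pairs are not given in the sources used here, so a count is not a molecule. The deposited files also give the covered fraction of each region, covered bases divided by length, and the annotation deposited by the authors gives the percent identity to the match. Coordinates are those of the annotation. The 2 genomic DNA samples were not analysed here. DESeq2 is named in the submitters' processing notes.

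Counts of 4464 regions were fitted with edgeR 4.0.16 in R 4.3.3 (TMM, filterByExpr, robust quasi-likelihood, cell type as the only factor). The SE is the size of the log2 fold change divided by the square root of F. The TMM factor lay between 0.941 and 0.951 for opaque and between 1.02 and 1.09 for white cultures, with a common biological coefficient of variation of 0.0847. An exact permutation test of 3 against 3 cannot give a two-sided p under 0.1. No library was a duplicate of another. Scripts were tested on simulated data. SEs cover the spread between these cultures only.

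Members, role lists, neighbouring lists and tests were chosen with earlier results of these data known. For a name with several regions, the one with most counts on average was used. Values in every library are given for members past the test with a log2 fold change of at least 1, for the smallest p of each role list and for members against their list. Those of other members, such as ERG11, HMG1, ERG3, OLE1, ELO2, FAS1 and FAS2, were added after they had been seen. In neighbouring lists up to 4 names with the smallest p were named. Other names there were added later. The 16 alternatives were 3 other scalings, DESeq2 1.42.0, 2 other count filters, culture number as a block, counts summed per name, regions of at least 200 bases and 40% identity, overlapping regions left out, and each of 6 cultures left out.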

Additional observations from a re-analysis of the deposited data

How the results depend on the processing

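Of the 26 member regions called changed, 26 kept call and direction with RLE scaling and with DESeq2, 23 with upper-quartile and 21 with total-count scaling, and 22 to 24 when 1 culture was left out. The number of changed member regions was then 22 to 25, and that of all regions 3125 to 3216. The mevalonate steps had 5 changed regions with total-count scaling in place of 8. The list of sterol regulators and esterification had 2 in place of 1 with upper-quartile scaling, with total-count scaling and with regions of at least 200 bases and 40% identity. Fatty acid synthesis had 1 to 3 changed regions when 1 culture was left out, in place of 2. The list of SPT23 and MGA2 processing had 2 in place of 4 with regions of at least 200 bases and 40% identity, a setting that drops the less identical regions. The summed level of opaque over white was 1.17 and 1.14 for all members, 1.30 and 1.26 for sterol enzymes, and 0.991 and 0.962 for fatty acid enzymes with upper-quartile and total-count scaling. These scalings shift the median of all regions by -0.12 and -0.16 (log2). With them 1402 and 1317 of all regions were higher and 1937 and 2021 lower, against 1611 and 1656 with TMM. Apart from the dropped regions, the causes of these moves were not tested. The deviations of same-numbered cultures from their group means correlated at -0.04, -0.04 and 0.18. Opaque culture 1 correlated best with white culture 2, and opaque culture 3 with white culture 3. Deviations from means of only 3 libraries constrain each other, so these values cannot decide whether culture numbers paired the samples. With the culture number as a replicate block, 25 member regions and 3259 of all regions changed, and fatty acid synthesis had 1. Depth did not limit the main regions, but the 5 regions under 200 bases hold few counts.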

Other observations

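Sphingolipid synthesis, which joins the very long chains made by ELO2 and ELO3 to long-chain bases, had 9 of 15 names higher in opaque cells, 4 lower and 2 not past the test, where 41.0% of all names were higher and 37.4% lower. SCS7, the hydroxylase of the very long chain fatty acid, had 1066, 1099 and 1205 CPM in opaque cultures, against 396, 262 and 399 CPM in white cultures (1.67, SE 0.156, adjusted p = 1.5e-05, edgeR). SUR2, the hydroxylase of the long-chain base, had 845, 906 and 886 CPM in opaque cultures, against 436, 391 and 408 CPM in white cultures (1.10, SE 0.068, adjusted p = 5.9e-08, edgeR). LCB5, a long-chain base kinase, and SUR1, which acts in mannosylation, were higher by 1.21 and 1.08. The base-forming subunits LCB1 and LCB2 were higher by 0.41 and 0.31. YDC1, a ceramidase, was lower, at 58.1, 61.0 and 64.6 CPM in opaque cultures, against 373, 340 and 373 CPM in white cultures (-2.57, SE 0.072, adjusted p = 1.3e-10, edgeR).

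Phospholipid synthesis had 3 of 15 names higher in opaque cells, 8 lower and 4 not past the test, against 41.0% higher and 37.4% lower over all names. CHO2, the first methyltransferase from phosphatidylethanolamine to phosphatidylcholine, had 197, 172 and 203 CPM in opaque cultures, against 59.2, 56.2 and 68.1 CPM in white cultures (1.64, SE 0.090, adjusted p = 2.2e-08, edgeR). OPI3, the methyltransferase that completes the same conversion, had 56.4, 54.1 and 61.8 CPM in opaque cultures, against 113, 101 and 107 CPM in white cultures (-0.90, SE 0.072, adjusted p = 5.8e-07, edgeR). The difference between these log2 fold changes was not tested. The acyltransferases SCT1 and GPT2 were lower, at -1.13 and -0.82. The largest increase of the list, that of CKI1 (3.39), rests on a region of 83 bases. Of 5 names of triacylglycerol synthesis and breakdown, the lipase TGL4 (0.34) and the phosphatase subunit SPO7 (0.60) were higher and the lipase TGL3 (-0.69) and the phosphatase PAH1 (-0.34) lower, shares near those of all names, and LRO1 did not pass.

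Of 8 names of other branches that draw on the isoprenoid units, 4 were higher in opaque cells and 4 lower, where 41.0% of all names were higher and 37.4% lower. COQ1, which makes the side chain of ubiquinone, had 57.2, 53.9 and 50.3 CPM in opaque cultures, against 168, 179 and 168 CPM in white cultures (-1.67, SE 0.069, adjusted p = 2e-09, edgeR). COX10, the farnesyltransferase that makes heme for respiration, was lower at -1.20. NUS1, a subunit of the dolichol-forming enzyme, was higher at 0.90, whereas RER2 of the same branch was lower at -0.64. SRT1 was higher at 1.03. LPP1, also counted as higher, rests on a region of only 89 bases with at most 1.07 CPM in any library. The subunits of the protein farnesyltransferase differed in direction, with log2 fold changes of 0.82 for RAM2 and -0.68 for RAM1.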
